A study of Mus musculus with 16 samples.

Results

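The 10 genes described here make, sense and move bile acids in the liver: the synthesis enzymes Cyp7a1, Cyp8b1, Cyp27a1 and Cyp7b1, the regulators Nr1h4 (FXR), Nr0b2 (SHP) and Fgfr4, and the transporters Slc10a1 (NTCP), Abcb11 (BSEP) and Slc51b (OST beta). They were chosen by name, from the gene column of the array annotation, and are 10 of the 18523 genes tested. Slc51b is written Ostb there and was matched through its transcript record. Total RNA from mouse liver was labelled with Cy3 and hybridised to single-colour Agilent whole-genome arrays, 16 arrays in 4 groups of 4. The groups were liver glucocorticoid receptor (GR) knockout given dexamethasone, untreated knockout, wild type given dexamethasone and untreated wild type. Dexamethasone is a synthetic glucocorticoid that activates GR, the product of Nr3c1. All groups were male C57BL/6 mice 3 months old. The sources call the animals without dexamethasone untreated, the treatment protocol mentions vehicle, and the titles of both knockout groups carry the word PBS. The promoter and allele behind the liver deletion were not given in the sources used here, nor were the dose, route and length of the dexamethasone treatment. Nothing says that replicates were separate mice, so p-values measure the spread between these samples, and 4 arrays a group limit the precision of every value.

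Bile acids are made from cholesterol in hepatocytes. Cyp7a1 is the rate-limiting enzyme of the main route, Cyp27a1 and Cyp7b1 act in the alternative route, and Cyp8b1 sets the share of cholic acid. Bile acids that return to the liver activate the nuclear receptor FXR, which induces SHP, and in the ileum they induce Fgf15, a hormone that signals through Fgfr4 on hepatocytes. Both signals lower Cyp7a1, while NTCP takes bile acids up from blood, BSEP exports them into bile and OST alpha with OST beta can export them back to blood.

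Some of the sequences behind the measurements are shown because 3 probes stand for Fgfr4 and 2 for Cyp7a1. A pair of Fgfr4 probes was designed on the record of a splice variant and lies on the plus strand of mm7 at chr13:54250254-54250313 and chr13:54250389-54250448. In the first, the capitals mark AGGTAA, which starts at base 47 of the probe. In the other, the capitals mark TTGCAG, which starts at base 22. As background, introns begin with GT and end with AG. These letters are a description of the probes, and splicing was not tested.
A_52_P686383: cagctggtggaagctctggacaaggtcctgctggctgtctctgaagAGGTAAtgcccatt
A_52_P144363: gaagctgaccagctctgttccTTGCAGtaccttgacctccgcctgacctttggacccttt

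One of the Cyp7a1 probes, A_51_P290981, is annotated over 607 bases at chr4:6195632-6196238 on the minus strand of mm7 although it is 60 bases long, so its bases are not contiguous there. The Slc51b probe, A_52_P229943, lies at chr9:65442539-65442598 on the minus strand of mm7. Both are given 5′ to 3′ as the array annotation has them, with no letters marked.
A_51_P290981: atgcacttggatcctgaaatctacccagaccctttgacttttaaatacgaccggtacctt
A_52_P229943: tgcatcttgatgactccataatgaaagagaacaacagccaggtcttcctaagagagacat

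RefSeq promoter sequences of the GRCm38.p6 build were matched for 8 of the 10 members, with 9 windows in all since Slc10a1 has a pair. The 250 bases before the start were searched on both strands for AGGTCA, the half-site of many nuclear receptors, and for AGAACA, a half-site of steroid receptors such as GR. AGGTCA was in 4 of the 9 windows, those of Abcb11, Slc51b, Nr1h4 and 1 of Slc10a1, against 14% of all 32851 promoter windows. AGAACA was in 1 window, that of Abcb11, against 16.1% of all windows. The windows of the 3 members whose levels differed between groups are shown, at chr1:74713285-74713534 on the plus strand for Cyp27a1, chr13:55152568-55152817 on the plus strand for Fgfr4 and chr9:65422774-65423023 on the minus strand for Slc51b. The capitals mark AGGTCA, whose first base is 203 bases before the Slc51b start.
Cyp27a1: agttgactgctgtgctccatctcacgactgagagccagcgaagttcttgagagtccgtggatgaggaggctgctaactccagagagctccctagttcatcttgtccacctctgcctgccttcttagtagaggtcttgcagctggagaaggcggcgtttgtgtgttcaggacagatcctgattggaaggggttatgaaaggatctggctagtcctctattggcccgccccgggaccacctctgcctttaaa
Fgfr4: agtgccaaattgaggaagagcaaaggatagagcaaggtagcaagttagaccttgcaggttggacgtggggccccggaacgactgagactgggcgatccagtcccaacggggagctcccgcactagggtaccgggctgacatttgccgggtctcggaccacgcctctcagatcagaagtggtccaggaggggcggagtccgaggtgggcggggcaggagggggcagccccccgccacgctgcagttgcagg
Slc51b: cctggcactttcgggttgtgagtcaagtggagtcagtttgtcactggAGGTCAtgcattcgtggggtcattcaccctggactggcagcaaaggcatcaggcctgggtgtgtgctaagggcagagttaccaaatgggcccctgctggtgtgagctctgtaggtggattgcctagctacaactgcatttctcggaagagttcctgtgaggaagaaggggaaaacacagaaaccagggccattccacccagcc

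Levels are log2 signals relative to the 75th percentile of the array, and differences are on the same log2 scale. On all 16 arrays every probe of the 10 members, 13 in all, was well above background and none was saturated. Nr3c1 was lower in knockout liver, with levels of -0.10 to 0.44 in treated knockout against 1.93 to 2.26 in treated wild type, and of 0.24 to 0.56 in untreated knockout against 2.13 to 2.52 in untreated wild type. The limma differences were -1.96 (adjusted p = 6.39e-06) and -1.99 (adjusted p = 1.64e-05). The 75th percentile lay between 523.9 and 691.1 on 14 arrays, but was 309.0 on untreated knockout 1 and 400.0 on untreated wild type 4. Results are therefore also given without these arrays. Every one of the 4 slides carried a single group, and effects of slide and of group cannot be told apart. In bulk liver, fewer cells of a type and less RNA per cell cannot be told apart either. The summed level of 5 hepatocyte markers (Alb, Ttr, Apoa1, Apob and Cps1), in multiples of the 75th percentile, was 1473 to 2485 over the 16 arrays, which fits the labelled tissue.

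**Figure D1:**
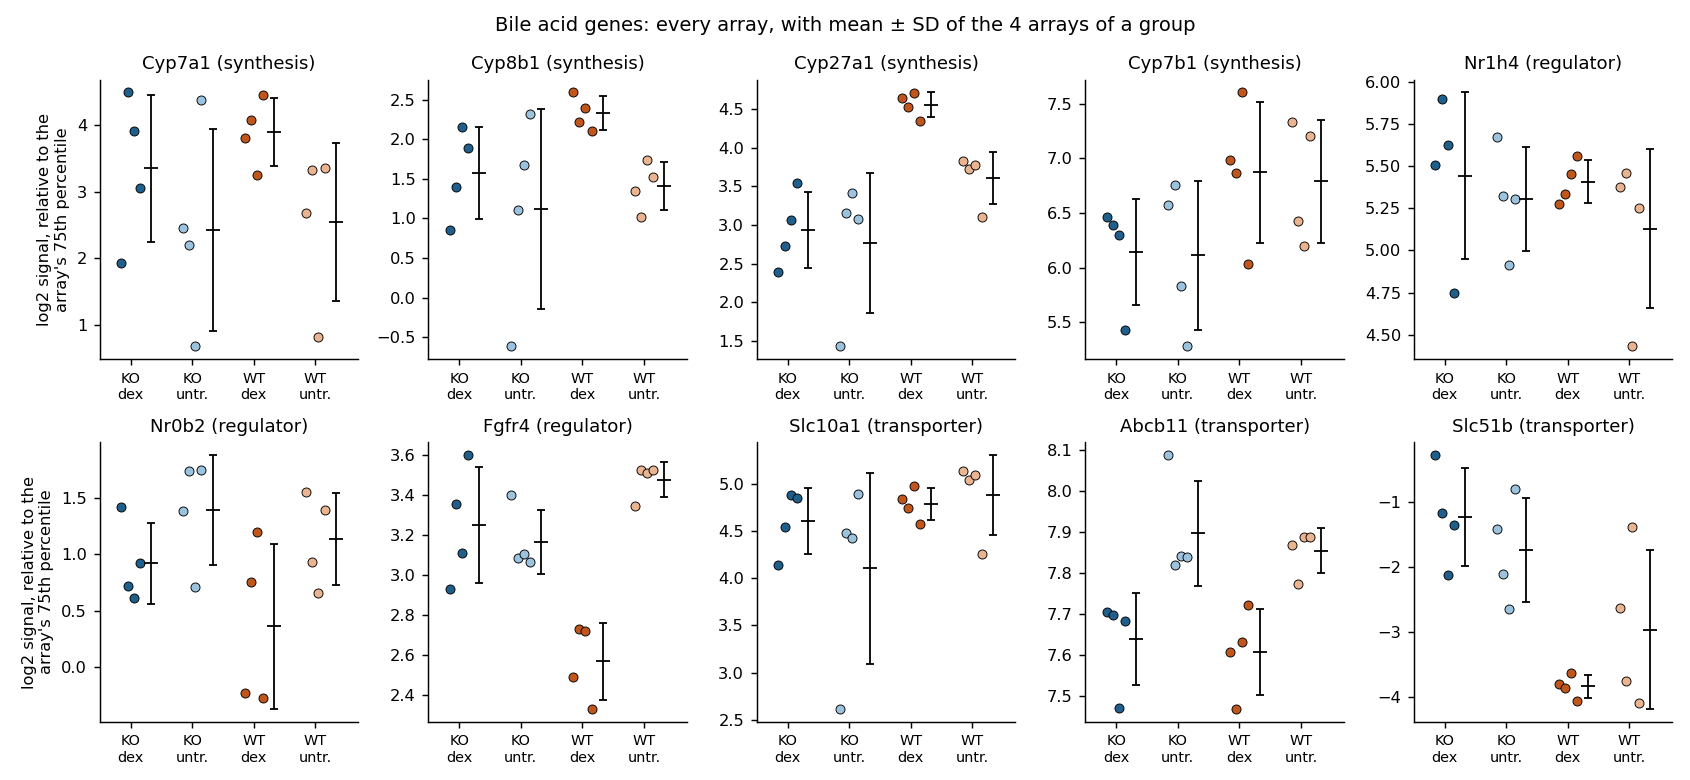
Log2 signal of the 10 members on every array, relative to the array's 75th percentile, by group (KO is liver GR knockout, WT is wild type, dex is dexamethasone, untr. is untreated). Points are arrays and bars are mean ± SD of 4 arrays. Treated wild type lies apart from untreated wild type for Cyp8b1, Cyp27a1, Fgfr4 and Abcb11, and treated knockout lies apart from treated wild type for Cyp27a1, Fgfr4 and Slc51b.

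In wild-type liver the Fgfr4 signal fell with dexamethasone, and no other of the 10 members passed the test. Fgfr4 was the 1 member called by limma at a Benjamini-Hochberg adjusted p under 0.05, against 12% of the 18523 genes. The arrays of the groups did not overlap for 4 members, Cyp8b1, Cyp27a1, Fgfr4 and Abcb11, against 22.1% of all genes. The median difference of the members was -0.01 and that of all genes was -0.03. Of the 4 members with an unadjusted p under 0.05, Cyp27a1, Nr0b2 and Abcb11 did not pass after adjustment. Without untreated knockout 1, limma called 3 members, with Cyp27a1 and Cyp8b1 (both higher) beside Fgfr4, against 3276 of the 18523 genes.

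In knockout liver, limma called none of the 10 members for dexamethasone, against 3.58% of all genes, and 1 member (Abcb11) had an unadjusted p under 0.05. Arrays did not overlap for that member alone, against 9.65% of all genes. The difference between the genotypes in the response, which is the interaction, was called for Fgfr4 alone, against 4.59% of all genes. Without untreated knockout 1, Cyp27a1 was called as well, against 1479 of the 18523 genes. With normexp background correction no member was called, against 95 of the 18523 genes. Knockout against wild type without dexamethasone gave no called member, against 2.82% of all genes, with 2 members (Cyp27a1 and Slc51b) at an unadjusted p under 0.05. No member's arrays lay apart in that comparison, against 11.7% of all genes. With dexamethasone, knockout against wild type gave 3 called members, Slc51b and Fgfr4 higher and Cyp27a1 lower, against 22.3% of all genes. The same 3 members had arrays that did not overlap, against 31.5% of all genes. All these counts, of members called and of arrays lying apart, use the brightest probe of each gene. On another Fgfr4 probe, A_52_P144363, limma called the knockout response (0.63, adjusted p = 0.0125 over all probes). The other probes of Fgfr4 and Cyp7a1 are given below. The knockout and treatment comparisons share arrays, so their values are set side by side and not counted as separate support.

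**Figure D2:**
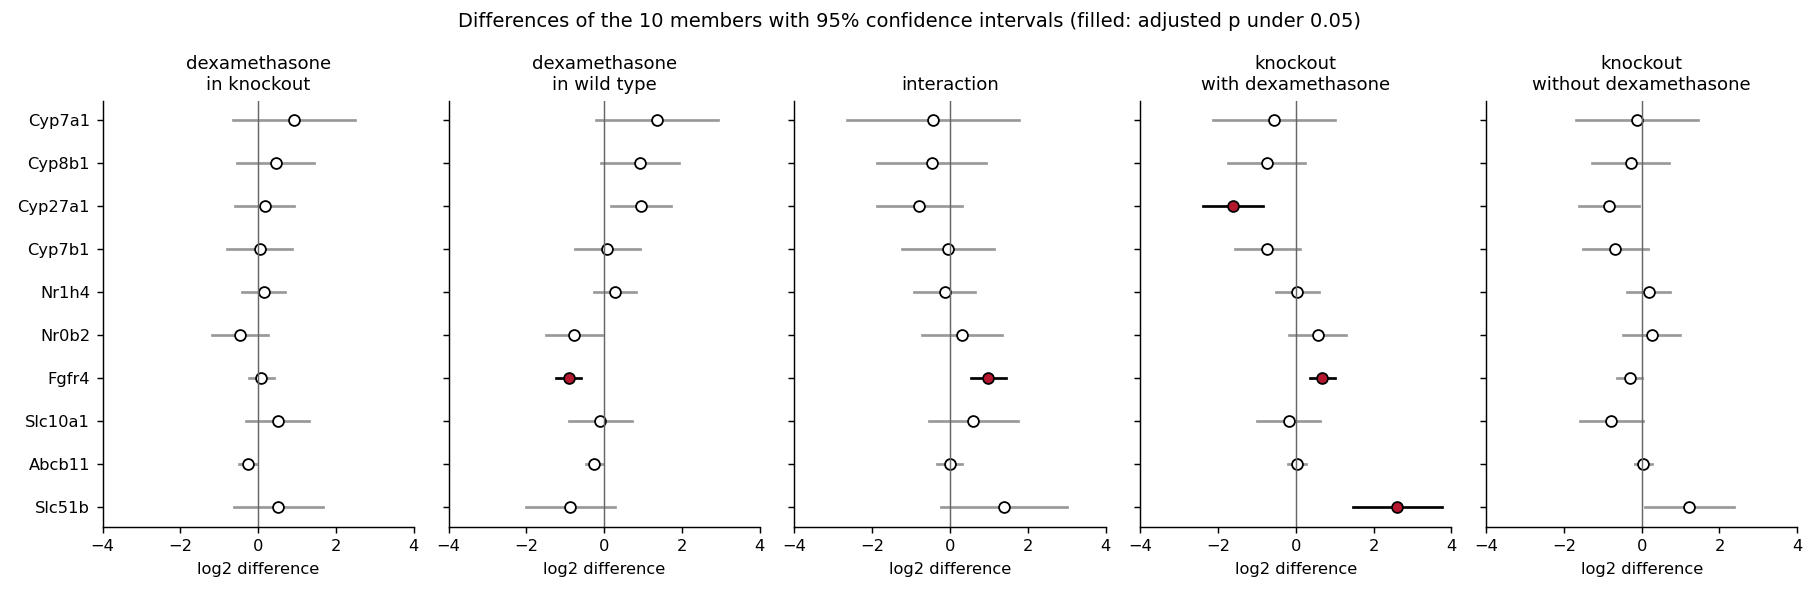
Log2 differences of the 10 members in the 5 comparisons, each with its 95% confidence interval, where filled points have an adjusted p under 0.05. Fgfr4 is filled in 3 panels, and Cyp27a1 and Slc51b in the panel of knockout against wild type with dexamethasone, at -1.62 and 2.61.

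Cyp27a1, the mitochondrial sterol 27-hydroxylase, had levels of 2.39, 2.73, 3.06 and 3.55 in treated knockout, against 4.64, 4.53, 4.71 and 4.34 in treated wild type. Every treated knockout array lay below every treated wild-type array. The level was 3.08-fold lower in treated knockout (log2 -1.62, SE 0.36, adjusted p = 0.0056). Over 29 alternatives the difference ranged from -1.83 to -1.44 and kept its call in each.

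Untreated knockout had Cyp27a1 levels of 1.43, 3.16, 3.41 and 3.08, against 3.83, 3.72, 3.77 and 3.11 in untreated wild type. Both low-signal arrays gave the lowest value of their group. The difference of -0.84 (SE 0.36) had an adjusted p of 0.217, and was -0.39 (adjusted p = 0.413) without untreated knockout 1. Dexamethasone in wild type gave a difference of 0.95 (SE 0.36, adjusted p = 0.104), with all 4 treated arrays above all 4 untreated ones. Without untreated knockout 1, which enters this fit through the shared spread, the same difference had an adjusted p of 0.0103, and without untreated wild type 4 it was 0.78 (adjusted p = 0.226). In knockout the response was 0.16 (adjusted p = 0.87), and -0.29 without untreated knockout 1 (adjusted p = 0.573). The interaction was -0.79 (adjusted p = 0.519), and -1.23 without that array (adjusted p = 0.0345).

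Of 5 tested hepatocyte markers, 2 differed in the same comparison as Cyp27a1, against 22.3% of all genes called. The summed level of the 5 was 1473 to 1775 in treated knockout and 1867 to 2166 in treated wild type. Apoa1 (-0.80, adjusted p = 0.00606) and Cps1 (-1.28, adjusted p = 0.00104) were called lower in treated knockout, while Alb (-0.06), Apob (-0.19) and Ttr (0.12) did not pass the test. In the wild-type response limma called 0 of the 5, against 12% of all genes, with 1 (Cps1) at an unadjusted p under 0.05. Without both low-signal arrays, Cps1 was called higher there (0.67, adjusted p = 0.00701), against 3369 of all 18523 genes called. In untreated knockout against untreated wild type, Apoa1 (-0.88, adjusted p = 0.02) and Cps1 (-0.89, adjusted p = 0.0407) were also lower, against 2.82% of all genes called. Alb (0.11), Apob (-0.41) and Ttr (0.05) did not pass in that comparison. Without both low-signal arrays, Apoa1 alone kept its call there (-0.81, adjusted p = 0.0398), against 365 of all 18523 genes. The 6 pericentral markers summed to 354.6 to 482.4 in treated knockout and 509.1 to 701.6 in treated wild type. The 6 periportal markers summed to 525.2 to 903.2 and 788.4 to 1116 in the same groups. In each list 2 of 6 were called lower, again against 22.3% of all genes called. The part of all these markers in the Cyp27a1 result was not tested.

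Cyp7a1, the rate-limiting enzyme, varied widely between arrays of a group. On probe A_52_P84027, which stood for the gene, it lay at 1.94 to 4.49 in treated knockout and 0.68 to 4.37 in untreated knockout. In wild type it lay at 3.25 to 4.46 with dexamethasone and 0.82 to 3.35 without. The groups overlapped in knockout and in wild type. The dexamethasone difference was 0.92 in knockout (SE 0.73, 95% interval -0.65 to 2.49, adjusted p = 0.59) and 1.36 in wild type (interval -0.21 to 2.93, adjusted p = 0.259). The intervals leave room for sizeable differences in either genotype. The other probe, A_51_P290981, shown above, gave 0.83 in knockout (SE 0.43, adjusted p = 0.379 over all probes) and 1.37 in wild type (SE 0.43, adjusted p = 0.0522). On that probe treated wild type, at 0.30 to 0.91, did not overlap untreated wild type, at -1.52 to -0.32. Treated knockout, at -0.48 to 0.18 there, lay below treated wild type without overlap (-0.73, SE 0.43, adjusted p = 0.252). On A_52_P84027 that difference was -0.55 (SE 0.73, adjusted p = 0.641 over all genes), with overlap. Neither passed the test.

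Cyp8b1, the sterol 12-alpha-hydroxylase, lay at 2.10 to 2.59 in treated wild type and 1.02 to 1.74 in untreated wild type, with no overlap. The difference of 0.92 (SE 0.47) missed the threshold (adjusted p = 0.225). Untreated knockout was the widest group, at -0.61 to 2.32, and its lowest value came from the low-signal array untreated knockout 1. Without that array the wild-type difference had an adjusted p of 0.0425. Treated knockout lay at 0.85 to 2.15, and its difference from treated wild type was -0.75 (SE 0.47, adjusted p = 0.272).

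Cyp7b1, the oxysterol 7-alpha-hydroxylase, lay at 5.42 to 6.47 in treated knockout, 5.28 to 6.75 in untreated knockout, 6.04 to 7.60 in treated wild type and 6.20 to 7.33 in untreated wild type. The knockout difference was -0.73 with dexamethasone (SE 0.39, adjusted p = 0.202) and -0.68 without (adjusted p = 0.368). The dexamethasone difference was 0.03 in knockout (95% interval -0.80 to 0.87, adjusted p = 0.979) and 0.08 in wild type (interval -0.75 to 0.92, adjusted p = 0.922).

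Fgfr4, the hepatocyte receptor for Fgf15, had levels of 2.93, 3.35, 3.11 and 3.60 in treated knockout, against 3.40, 3.09, 3.11 and 3.07 in untreated knockout. Treated wild type had 2.49, 2.73, 2.72 and 2.33, against 3.34, 3.52, 3.51 and 3.52 in untreated wild type. The knockout groups overlapped and the wild-type groups lay apart. With dexamethasone, Fgfr4 differed by 0.08 in knockout (SE 0.15, 95% interval -0.24 to 0.40, adjusted p = 0.836) and fell 1.88-fold in wild type (log2 -0.91, SE 0.15, adjusted p = 0.00188). The interaction, knockout response minus wild-type response, was 0.99 (SE 0.21, 95% interval 0.54 to 1.44, adjusted p = 0.0173).

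Under dexamethasone, Fgfr4 was 1.60-fold higher in knockout than in wild type (log2 0.68, SE 0.15, adjusted p = 0.00535). Without dexamethasone the difference was -0.31 (SE 0.15, adjusted p = 0.272). Without untreated knockout 1 the wild-type response had an adjusted p of 0.00111 and the interaction was 1.07 (adjusted p = 0.00826). Without untreated wild type 4 the interaction was 0.97 (adjusted p = 0.0243). The interaction lost its call with normexp background correction, at 0.99 with an adjusted p of 0.0514.

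The 3 Fgfr4 probes all fell in wild type with dexamethasone, while in knockout 1 of them rose and the other two did not pass the test. With dexamethasone in wild type, the splice-variant probes A_52_P144363 and A_52_P686383 fell by 0.73 (SE 0.12, adjusted p = 0.00184) and by 0.63 (SE 0.16, adjusted p = 0.0198). In knockout, A_52_P144363, with TTGCAG in capitals above, had levels of -0.48, -0.53, -0.47 and -0.23 with dexamethasone, against -1.08, -1.33, -0.92 and -0.89 without. The groups did not overlap, and the probe rose by 0.63 on the log2 scale (SE 0.12, adjusted p = 0.0125). A_52_P686383 differed by 0.27 in knockout (SE 0.16, adjusted p = 0.464). The interaction was 1.35 (SE 0.17, adjusted p = 0.00105) on A_52_P144363 and 0.90 (SE 0.23, adjusted p = 0.0416) on A_52_P686383. Without dexamethasone, knockout lay below wild type without overlap on A_52_P144363 (-0.26, adjusted p = 0.254) and on A_52_P686383 (-0.33, adjusted p = 0.294). Neither difference passed the test. Whether the probes read different transcripts was not tested.

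**Figure D3:**
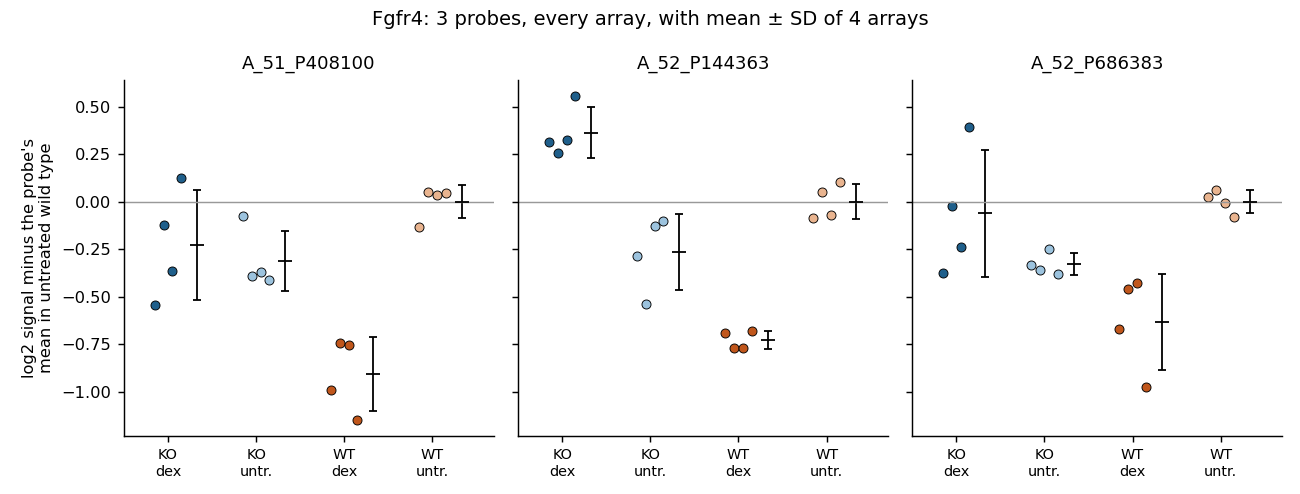
Log2 signal of the 3 Fgfr4 probes on every array, each minus the mean of that probe in untreated wild type, by group, with mean ± SD of 4 arrays. On all 3 probes the treated wild-type arrays lie below the untreated ones. On A_52_P144363 the treated knockout arrays lie above the untreated knockout arrays, with a difference of 0.63.

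Nr1h4, which encodes the bile acid receptor FXR, lay at 4.74 to 5.89 in treated knockout, 4.91 to 5.67 in untreated knockout, 5.28 to 5.56 in treated wild type and 4.43 to 5.46 in untreated wild type. All groups overlapped. Its difference was 0.28 with dexamethasone in wild type (SE 0.26, 95% interval -0.27 to 0.83, adjusted p = 0.535) and 0.04 for knockout against wild type with dexamethasone (interval -0.51 to 0.58, adjusted p = 0.938).

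Nr0b2 encodes SHP, the repressor that FXR induces. It lay at 0.62 to 1.42 in treated knockout and 0.71 to 1.74 in untreated knockout, and at -0.28 to 1.20 in treated wild type and 0.66 to 1.55 in untreated wild type. The dexamethasone difference was -0.47 in knockout (SE 0.34, adjusted p = 0.541) and -0.77 in wild type (SE 0.34, adjusted p = 0.161). With dexamethasone, knockout minus wild type was 0.56 (adjusted p = 0.263).

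Slc51b, the beta subunit of the basolateral bile acid exporter, had levels of -0.28, -1.16, -2.12 and -1.35 in treated knockout, against -3.79, -3.86, -3.63 and -4.06 in treated wild type. Every treated knockout array lay above every treated wild-type array. It was 6.09-fold higher in treated knockout (log2 2.61, SE 0.54, 95% interval 1.46 to 3.75, adjusted p = 0.00354). With normexp background correction the difference was 1.62, and over 29 alternatives it ranged from 1.62 to 2.90 and kept its call in each.

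Untreated knockout had Slc51b levels of -1.42, -2.10, -2.64 and -0.79, against -2.63, -3.75, -1.39 and -4.09 in untreated wild type. Untreated wild type was spread over both ranges, and the untreated groups overlapped. The difference was 1.22 (SE 0.54, adjusted p = 0.227). Dexamethasone gave 0.51 in knockout (adjusted p = 0.698) and -0.87 in wild type (adjusted p = 0.328), and the interaction was 1.38 (SE 0.76, 95% interval -0.24 to 3.00, adjusted p = 0.405). The partner subunit Slc51a was well above background on at most 2 of 16 arrays and was not tested.

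Slc51b is also expressed by bile duct cells and the ileum. The summed level of 5 of 6 cholangiocyte markers was 14.4 to 64.0 in treated knockout and 10.4 to 19.6 in treated wild type. Of the 5, 1 (Krt7, -0.88) was called lower and none higher, against 22.3% of all genes called. The sum was carried by Spp1, with levels of 5.96, 4.25, 4.27 and 3.73 in treated knockout and 3.87, 3.06, 3.15 and 4.11 in treated wild type (1.01, adjusted p = 0.136), and its highest value came from treated knockout 1. Sox9 (-0.99), Epcam (-0.38) and Krt19 (-0.04) had negative differences that did not pass. Without both low-signal arrays, 2 of the 5 were called lower, against 5984 of all 18523 genes called. Cftr, the sixth listed, was above background on at most 7 of 16 arrays. Their part in the Slc51b result was not tested. Of 4 ileal markers, Fabp6 was well above background on 0 of 16 arrays. The other 3, Fabp2, Slc10a2 and Vil1, summed to 76.1 to 105.9 in treated knockout and 55.4 to 94.6 in treated wild type. Slc10a2 was called lower in treated knockout, and Fabp2 (0.35) and Vil1 (0.35) did not pass.

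Slc10a1, the sodium-dependent uptake transporter, lay at 4.14 to 4.88 in treated knockout and 4.58 to 4.98 in treated wild type, and at 2.62 to 4.89 in untreated knockout and 4.25 to 5.14 in untreated wild type. The low-signal arrays gave the lowest value of both untreated groups. The untreated knockout difference was -0.78 (SE 0.38, adjusted p = 0.278), and -0.28 without untreated knockout 1. With dexamethasone it was -0.18 (95% interval -0.99 to 0.63, adjusted p = 0.78).

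Abcb11, the canalicular bile salt export pump, was the least variable member, with a range of 0.62 over the 16 arrays. It lay at 7.47 to 7.70 in treated knockout and 7.82 to 8.09 in untreated knockout. In wild type it lay at 7.47 to 7.72 with dexamethasone and 7.77 to 7.89 without. Treated arrays lay below untreated arrays in both genotypes, without overlap. The difference was -0.26 in knockout (SE 0.10, adjusted p = 0.218) and -0.25 in wild type (SE 0.10, adjusted p = 0.146), neither of which passed the threshold. The interaction was -0.01 (95% interval -0.33 to 0.31, adjusted p = 0.99).

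Across genes with a symbol, the patterns most like the called members were found by Pearson's r over the 16 arrays, as a description. All points share the arrays and their groups. For Fgfr4 they were Rin2 (0.904), Lzts3 (0.884) and Adar (0.877). For Cyp27a1 they were Crp (0.965), Ahcyl1 (0.959) and Cdkn2aipnl (0.959), and for Slc51b they included Dtl (0.921) and Mcm3 (0.903).

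In a list of 16 other enzymes drawn up for bile acid synthesis, 4 rose and 1 fell with dexamethasone in wild type. Over all genes 12% were called there, and the median difference was -0.02 against -0.03 for all genes. In knockout with dexamethasone against wild type with dexamethasone, 1 was higher and 5 were lower, against 22.3% of all genes called, with a median of -0.35 against 0.09 for all genes. Cyp39a1, an oxysterol 7-alpha-hydroxylase, differed by -2.30 on the log2 scale in treated knockout (levels -0.87 to 1.64, against 2.14 to 3.06 in treated wild type, adjusted p = 0.00466). Cyp2c70, which makes muricholic acids in mice, was higher with dexamethasone in wild type by 0.89 (adjusted p = 0.0329), and its difference in treated knockout against treated wild type was -1.30 (adjusted p = 0.00245). Acox2, a peroxisomal oxidase of the side chain, differed by 0.61 in the wild-type response (adjusted p = 0.0307) and by -0.88 in treated knockout against treated wild type (adjusted p = 0.00247). Acot12, an acyl-CoA thioesterase, differed by 0.57 and by -0.89 in the same comparisons (adjusted p of 0.0411 and 0.00231). It is not an established enzyme of bile acid synthesis, yet it counts among the 4 that rose and the 5 that were lower. Amacr, the racemase of the side chain, rose by 1.06 in wild type (adjusted p = 0.0251). Hsd3b7, an enzyme of the sterol ring, ran the other way and was named after its values were seen. It fell by 0.71 in wild type (adjusted p = 0.00101) and was the 1 enzyme higher in treated knockout than in treated wild type (0.64, adjusted p = 0.000818).

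Cyp46a1, the cholesterol 24-hydroxylase known from brain, was the 1 enzyme of the list called for dexamethasone in knockout and for the interaction. Over all genes, 3.58% and 4.59% were called in these comparisons. The Cyp46a1 levels were -1.24 to -0.82 in treated knockout and -0.51 to 0.68 in untreated knockout. In wild type they were -0.91 to -0.36 with dexamethasone and -1.57 to -0.91 without. Cyp46a1 fell by 1.02 in knockout (adjusted p = 0.0259), and the interaction was -1.57 (adjusted p = 0.0144). In untreated knockout against untreated wild type, 1 enzyme was higher (Cyp46a1, 1.10, adjusted p = 0.0227) and 1 lower (Cyp39a1, -2.17, adjusted p = 0.0329). Over all genes, 2.82% were called there. The Cyp39a1 call was lost without both low-signal arrays (-1.74, adjusted p = 0.111).

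Of 13 other transporters, 12 were tested. With dexamethasone in wild type, 1 rose (Slc10a2) and 2 fell (Abcg5 and Abcg8), against 12% of all genes called, with a median of -0.28 against -0.03 for all genes. In knockout limma called none of them for dexamethasone, against 3.58% of all genes, with 3 at an unadjusted p under 0.05. None of the 12 was called for the interaction, against 4.59% of all genes, with 2 at an unadjusted p under 0.05. Without both low-signal arrays 1 was called for it, Slc10a2 (-1.89, adjusted p = 0.0328), against 1511 of all 18523 genes. In treated knockout against treated wild type, 2 were higher and 2 lower, against 22.3% of all genes. Slc10a2, the sodium-dependent transporter known from ileum and bile duct, lay at 2.35 to 3.62 in treated wild type and 0.65 to 2.08 in untreated wild type (log2 1.66, SE 0.36, adjusted p = 0.00902). Its difference in treated knockout against treated wild type was -1.42 (adjusted p = 0.0121). Abcg5 and Abcg8, the paired sterol exporters, fell by 0.94 and by 0.92 (adjusted p of 0.00924 and 0.0307). Abcc4, an exporter on the blood side, was 1.67 higher on the log2 scale in treated knockout (adjusted p = 0.00742) and 1.53 higher in untreated knockout (adjusted p = 0.0494, and 0.0685 without both low-signal arrays). Abcc2, a canalicular exporter, was lower in treated knockout, at -0.44 (adjusted p = 0.0264). Abcb1a, a drug exporter, was not well above background on any treated wild-type array and was so on 3 of 4 treated knockout arrays. On the group mean it was at least 1.99-fold higher in treated knockout (adjusted p = 0.0177). Its treated knockout levels were -2.39, -5.06, -5.06 and -4.05, so that bound leans on treated knockout 1 and does not hold for each array.

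Of 17 other regulators, 15 were tested, since Fgf15 and Vdr were above background on at most 1 and 2 of 16 arrays. With dexamethasone in wild type, 1 rose (Hnf4a, 0.59, adjusted p = 0.0358) and 2 fell, the nuclear receptors Ppara (-0.88, adjusted p = 0.0101) and Nr1i3 (-0.94, adjusted p = 0.0317, and 0.0568 without both low-signal arrays). These 3 of 15 stood against 12% of all genes called, and the median was -0.10 against -0.03. In knockout limma called none, against 3.58% of all genes, with 2 at an unadjusted p under 0.05. None of the 15 was called for the interaction, against 4.59% of all genes, with 1 (Hnf4a) at an unadjusted p under 0.05. Without both low-signal arrays Hnf4a was called for it (-0.92, adjusted p = 0.0173), against 1511 of all 18523 genes. In treated knockout against treated wild type, 1 was higher and 2 lower, against 22.3% of all genes. Hnf4a, an activator of Cyp7a1 and Cyp8b1, lay at 3.37 to 3.45 in treated knockout and 4.42 to 4.80 in treated wild type (log2 -1.14, SE 0.17, adjusted p = 0.000429). Ppargc1a, a coactivator, was also lower there (-1.38, adjusted p = 0.00594) and Ppara was higher (0.58, adjusted p = 0.0463). Without both low-signal arrays, 2 were called higher and 5 lower in that comparison, against 5984 of all 18523 genes called.

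Of 8 clock genes known to act on Cyp7a1, 1 rose and 2 fell with dexamethasone in wild type, against 12% of all genes called, with a median of -0.65 against -0.03. In knockout limma called none of the 8, against 3.58% of all genes, with 1 at an unadjusted p under 0.05. For the interaction 1 of the 8 (Dbp) was called, against 4.59% of all genes, with 3 at an unadjusted p under 0.05. Dbp, an activator of Cyp7a1, lay at 7.15 to 7.74 in treated knockout and 6.98 to 8.12 in untreated knockout. In wild type it lay at 3.96 to 5.06 with dexamethasone and 6.84 to 7.70 without (log2 -2.74, adjusted p = 0.000106), and the interaction was 2.57 (adjusted p = 0.00319). Nfil3, which represses through the same DNA element, rose by 1.64 in wild type (adjusted p = 0.0141). Tef, related to Dbp, fell by 0.79 (adjusted p = 0.0342, and 0.0536 without both low-signal arrays). In treated knockout against treated wild type, 3 were higher (Dbp, Nr1d1 and Bhlhe40) and 2 lower (Nfil3 and Hlf), against 22.3% of all genes called. Those differences were 2.94, 1.46 and 0.86 for the higher ones and -1.66 and -0.79 for the lower ones.

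**Figure D4:**
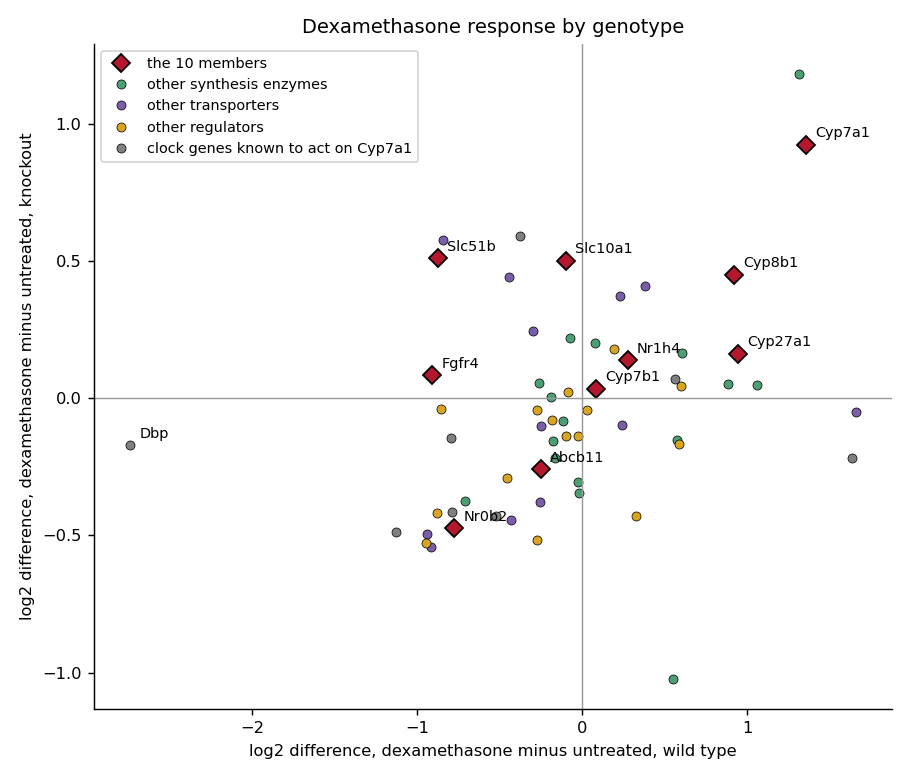
Log2 difference of dexamethasone minus untreated in knockout (vertical) and in wild type (horizontal) for the 10 members (diamonds, named) and the genes of 4 lists. Fgfr4 lies at 0.08 in knockout and -0.91 in wild type, Abcb11 at -0.26 in knockout and -0.25 in wild type, and Dbp at -0.17 in knockout and -2.74 in wild type.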

How the data were processed

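The deposited scanner files give a processed signal for each spot, an intensity that is background-subtracted per the file headers. Per the submitters' processing notes, the authors used Agilent Feature Extraction 9.5. The mean signal and the local background were also deposited as an intensity, and the deposited flags for brightness, saturation and outliers are yes-or-no values of the kind other. The deposited series table holds the same intensity, with a largest difference of 0, and no normalization between arrays was seen. Of 45018 spots, 1639 controls were left out, 2121 values marked as outliers over all arrays (0.306%) were treated as missing, and replicate spots of a probe were averaged. Between 57.3% and 67.9% of spots an array were well above background.

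Signals were put on a log2 scale and the 75th percentile of the array was subtracted. A probe was kept (26817 in all) if well above background on 3 or more arrays of some group, and each gene was read from its brightest probe on average (18523 genes, 15165 with a symbol). Of 41174 probes, 22951 were named through RefSeq accessions, 9768 through symbols or synonyms, and 8455 had no match. Probe positions are on mm7 per the file headers, and promoters on GRCm38.p6.

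Limma 3.58.1 in R 4.3.3 fitted 4 group means to 16 arrays (12 residual degrees of freedom), with two-sided tests and Benjamini-Hochberg adjustment over all genes, or over all kept probes where a probe is named. The fit was tested on simulated data. All 10 members are described, and from each list the called genes, largest first, up to 6. The members and lists were chosen with earlier results of these data known. Groups came from the source names. Same-numbered arrays were not treated as pairs, since the labels tie them to nothing shared. Correlations of deviations between same-numbered arrays were -0.183 to 0.347 (median 0.0753), with 10 of 24 above 0.1. A rule that every correlation be above 0.1 was not met, but paired arrays could fail it as well. In 23 of 48 comparisons an array matched its own number best, where 12 would if numbers carried nothing. A fit with a replicate block is therefore given below. Plots used matplotlib 3.10.9 under Python 3.11.15. One gene that the rule on like patterns named is not reported here.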

Additional observations from a re-analysis of the deposited data

Results flagged for a closer look

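The test for a single outlying array looked at 40 groups of 4 arrays (10 members in each of the 4 groups) and marked 8, where chance marks about 1 in 20, which is 2.0 groups. Untreated knockout 1, the array with the lowest 75th percentile, stood apart for Cyp27a1 (1.43, against 3.08 to 3.41 on the other arrays of its group), Fgfr4 (3.40, against 3.07 to 3.11) and Abcb11 (8.09, against 7.82 to 7.84). Untreated wild type 4, the array with the next lowest percentile, stood apart for Cyp27a1 (3.11, against 3.72 to 3.83) and Slc10a1 (4.25, against 5.04 to 5.14). Untreated wild type 1 was low for Fgfr4 (3.34, against 3.51 to 3.52). Treated knockout 4 was low for Cyp7b1 (5.425, against 6.30 to 6.47), and treated knockout 3 for Abcb11 (7.47, against 7.68 to 7.70).

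The Fgfr4 response to dexamethasone differed between the genotypes by the interaction term of limma, at 0.99 for knockout minus wild type (adjusted p = 0.0173). The part of signal level in the marked arrays was not tested.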

How the results depend on the processing

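The call for Cyp27a1 and Slc51b in treated knockout against treated wild type, and for Fgfr4 there and in the wild-type response, held in all 29 alternatives, and the Fgfr4 interaction in 28 of 29. The refit of the series table is among them and holds the same values, so its results could not differ. For the interaction, fitting only the groups compared used all 4 groups and repeated the main fit. These repeats also count among the kept values in the next paragraph. The 3 members called in treated knockout against treated wild type, and the 0 called in the knockout response and in untreated knockout, kept their number in all alternatives. The wild-type response had 4 called members with array weights, 3 when only the groups compared were fitted, 2 without both low-signal arrays and 1 to 3 with 1 array left out. The interaction had 0 with normexp, 2 with array weights, 2 without both low-signal arrays and 1 to 2 with 1 array left out. These settings also changed the number called over all 18523 genes. In the wild-type response it was 5070 with array weights and 2746 when only the groups compared were fitted. It was 3369 there without both low-signal arrays and 1210 to 3276 with 1 array left out. For the interaction it was 95 with normexp and 2681 with array weights. Without both low-signal arrays it was 1511 for the interaction, and with 1 array left out 500 to 1479. The replicate block changed no count of members. These were 1, 0, 1, 0 and 3 in the wild-type response, knockout response, interaction, untreated knockout and treated knockout. Over all 18523 genes the block did change the number called. In the same order it gave 2171, 804, 1068, 777 and 4152, against 2216, 663, 851, 522 and 4135 without it. Of 48 comparisons of an array, 23 matched its own number best, where 12 would if numbers carried nothing. That is a hint of shared structure in the data that the labels do not describe. Over all genes, the number called ranged from 1194 to 5070 (2216 as reported) in the wild-type response, 46 to 1739 (663) in the knockout response, 95 to 2681 (851) for the interaction, 85 to 1492 (522) in untreated knockout and 2360 to 6672 (4135) in treated knockout. The lowest came with normexp and the highest with array weights, and normexp also moved the median of all genes to 0.11 for the interaction and 0.18 in treated knockout.

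Of 650 differences of members recomputed under other settings, 623 kept direction and side of the threshold, 1 lost its call, 8 gained one (Cyp8b1, Cyp27a1 and Abcb11) and 18 turned sign, all of them uncalled, as did 38 of 800 with 1 array left out. The cause was not tested. Without both low-signal arrays these were the knockout response of Cyp8b1 (-0.13) and Cyp27a1 (-0.29), the interaction of Abcb11 (0.042), and untreated knockout of Cyp7a1 (0.14), Cyp8b1 (0.34) and Abcb11 (-0.011). With array weights they were the knockout response of Cyp27a1 (-0.23) and Cyp7b1 (-0.067), the interaction of Cyp7a1 (0.18), Nr1h4 (0.17) and Abcb11 (0.0099), and untreated knockout of Cyp8b1 (0.086), Nr1h4 (-0.0018) and Abcb11 (-0.0021). With normexp they were the knockout response of Cyp7b1 (-0.014) and treated knockout of Nr1h4 (-0.16) and Abcb11 (-0.20), and with quantile normalization the interaction of Abcb11 (0.068). With 1 array left out, the values that turned sign spanned -0.16 to 0.36 for Cyp7b1 in the wild-type response. In the knockout response they spanned -0.13 to 0.85 for Cyp8b1, -0.29 to 0.38 for Cyp27a1, -0.24 to 0.27 for Cyp7b1, -0.011 to 0.37 for Nr1h4 and -0.033 to 0.19 for Fgfr4. For the interaction they spanned -1.02 to 0.21 for Cyp7a1, -0.33 to 0.19 for Cyp7b1, -0.29 to 0.094 for Nr1h4 and -0.057 to 0.053 for Abcb11. In untreated knockout they spanned -0.76 to 0.47 for Cyp7a1, -0.68 to 0.30 for Cyp8b1, -0.057 to 0.30 for Nr1h4 and -0.022 to 0.068 for Abcb11, and in treated knockout -0.11 to 0.27 for Nr1h4 and -0.015 to 0.087 for Abcb11. Slides held 1 group each, the members are few, and 4 arrays a group leave wide intervals for Cyp7a1 and Slc51b.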
